A study of Mus musculus with 32 samples.

Results

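Expression of 10 genes of the oxidative stress response was followed in denervated skeletal muscle: Nfe2l2, Gclc, Gclm, Txn1, Txnrd1, Srxn1, Nqo1, Hmox1, Sod1 and Sod2. They were chosen by symbol, as the transcription factor Nrf2, its well known targets and the main intracellular superoxide dismutases, and they are 10 of the 33397 genes in the deposited table. RNA was sequenced from the gastrocnemius (GAS), a fast muscle of the calf whose motor axons run in the sciatic nerve. The 8 groups were 0, 1, 3, 5, 7, 14, 21 and 28 d after the operation, with 4 samples in each and 32 in all, from mice labelled C57BL/6 (C57BL/6J in the study's methods). The study's methods describe males of 6 to 8 weeks in which a short piece of the left sciatic nerve was removed. The labels list sciatic nerve transection for every group, 0 d included. The study compares its RNA-seq of 14, 21 and 28 d with a sham group that it calls nondenervated, and its methods describe a sham operation without the transection. Neither passage states that 0 d is that group, so whether the 0 d animals were operated on is not settled here. The 4 columns of the 0 d group carry a C in place of a day and were matched to 0 d because each other day has columns of its own. No label ties a column to an animal, so the p-values below measure the spread between these samples. Values of a group are given in the order of the columns, called samples 1 to 4 at 0 d and samples a to d at the other days.

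The values are FPKM, fragments of a gene per exon length and per library total. Depth was 14189200 to 17546700 fragments per sample, and the 10 genes had between 158 (Hmox1) and 7943 (Srxn1) fragments in a sample, so none was near the limit of detection. The labels' extraction text speaks of retina while the tissue label is GAS, and the 6 muscle fibre markers checked (Acta1, Ckm, Myh4, Tnnt3, Mb and Pvalb) summed to 20573 to 42597 FPKM in every sample, against at most 0.285 FPKM for 6 retina markers. The 3 d sample a stood apart from the other 3 of its day on the first principal component, at -18.5 against 1.15 to 6.40, on the side of the 0 d and 1 d samples. Pearson's r between samples of a day, across genes, had a median of 0.988 and a lowest value of 0.961 over 48 pairs.

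Nrf2, the product of Nfe2l2, is held in the cytoplasm by Keap1, which delivers it to a ubiquitin ligase for degradation. Oxidants and electrophiles modify Keap1, and Nrf2 then enters the nucleus, pairs with a small Maf protein and binds the antioxidant response element (ARE) of genes for glutathione synthesis, the thioredoxin system and the breakdown of quinones and haem. Because this control acts largely on the protein, the mRNA of Nfe2l2 is only a partial guide to its activity, and in muscle the superoxide dismutases Sod1 (cytosol) and Sod2 (mitochondrial matrix) depend on other factors as well.

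RefSeq promoter windows (GRCm38.p6) were given for 8 of the 10 genes, with 3 windows for Txnrd1, and the 250 bases before each start were searched on both strands for the ARE core TGACNNNGC and for the AP-1 element TGACTCA, which resembles its left part. The core was found once each before Nfe2l2, Gclm, Txnrd1 (the middle of its 3 windows) and Sod1, that is for 4 of the 8 genes, and in 10.2% of all 32851 windows (11.5% of the genes with a window). No match to TGACNNNGC was found in these 250 bases before Txn1, Srxn1, Nqo1 or Sod2. Srxn1 held 2 AP-1 elements, a motif present in 4.46% of all windows, and no AP-1 element overlapped a match to TGACNNNGC in these genes. The proximal Srxn1 element with the 2 bases after it, TGAGTCAGC, differs from TGACNNNGC only by a G for the C after TGA. Cores with a G there were not searched, so the absence before these genes covers the stricter pattern alone. Stretches are shown for the 4 genes with a core, and for Srxn1 because it had the largest change of all 10. Capitals mark the ARE core, or for Srxn1 the AP-1 element, and each line reads 5′ to 3′ in the direction of the gene.
Nfe2l2: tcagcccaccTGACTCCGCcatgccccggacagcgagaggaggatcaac
Gclm: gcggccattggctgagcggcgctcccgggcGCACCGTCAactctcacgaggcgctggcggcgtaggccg
Txnrd1: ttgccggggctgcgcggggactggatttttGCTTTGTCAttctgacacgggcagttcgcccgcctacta
Sod1: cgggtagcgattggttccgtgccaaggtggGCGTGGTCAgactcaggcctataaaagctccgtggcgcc
Srxn1, distal: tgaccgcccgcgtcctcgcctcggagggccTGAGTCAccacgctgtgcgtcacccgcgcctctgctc
Srxn1, proximal: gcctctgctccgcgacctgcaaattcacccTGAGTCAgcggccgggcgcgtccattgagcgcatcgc
The Nfe2l2 stretch lies at chr2:75704865-75704913 on the minus strand and the others on the plus strand, Gclm at chr3:122245393-122245461, Txnrd1 at chr10:82859084-82859152, Sod1 at chr16:90220676-90220744 and Srxn1 at chr2:152105392-152105458 and chr2:152105449-152105515. The cores ended 232 (Nfe2l2), 126 (Gclm), 84 (Txnrd1) and 48 (Sod1) bases before the start. A match is a description of letters only, and elements farther away were not searched.

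Most of the 10 genes were higher at 1 d than at 0 d, and the set then divided. As deposited, Srxn1, Hmox1, Gclm, Txnrd1, Gclc and Nfe2l2 had their highest mean at 1 d, Nqo1 and Sod1 at 3 d, Txn1 at 7 d (close to its 3 d mean), and Sod2 at 0 d. A gene was called higher or lower at a Benjamini-Hochberg adjusted p under 0.05 in limma, over all 22071 genes tested, together with a change of at least 1.5-fold on the log2(FPKM + 1) scale, where low genes show less than their full change. At 1 d, 7 of the 10 were called higher, where 6.34% of all genes were, and 0 lower (2.49% of all genes), although the difference of Sod2 at 1 d, below 0 d, had an unadjusted p under 0.05. The counts were 7 higher and 1 lower at 3 d (13.2% and 6.03% of all genes), 7 and 1 at 5 d (14.9% and 3.86%) and 7 and 2 at 7 d (15.4% and 4.1%). Later they were 5 higher and 2 lower at 14 d (14.6% and 3.83%), 4 and 2 at 21 d (11.8% and 3.93%) and 4 and 2 at 28 d (14.2% and 4.1%). The median log2 fold change of the 10 was 1.11 at 1 d, 1.16 at 3 d, 0.88 at 5 d and 7 d, 0.65 at 14 d and 0.50 at 21 d and 28 d, while that of all genes tested lay between 0.034 and 0.15. All 7 comparisons share the 0 d samples. In whole muscle, a change in the number of cells of a type and a change in the RNA per cell cannot be told apart. Over the 8 groups, all 10 genes passed the moderated F test, as did 63.2% of all genes. As deposited, in 68 of the 70 pairings of a gene with a day (and in 40.4% of such pairings over all genes tested, without overlap in either direction), the 4 samples did not overlap the 4 of 0 d and the exact permutation test gave its smallest two-sided p, 0.0286, the exceptions being Gclc at 3 d (exact p = 0.171) and Nqo1 at 5 d (exact p = 0.143).

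**Figure D1:**
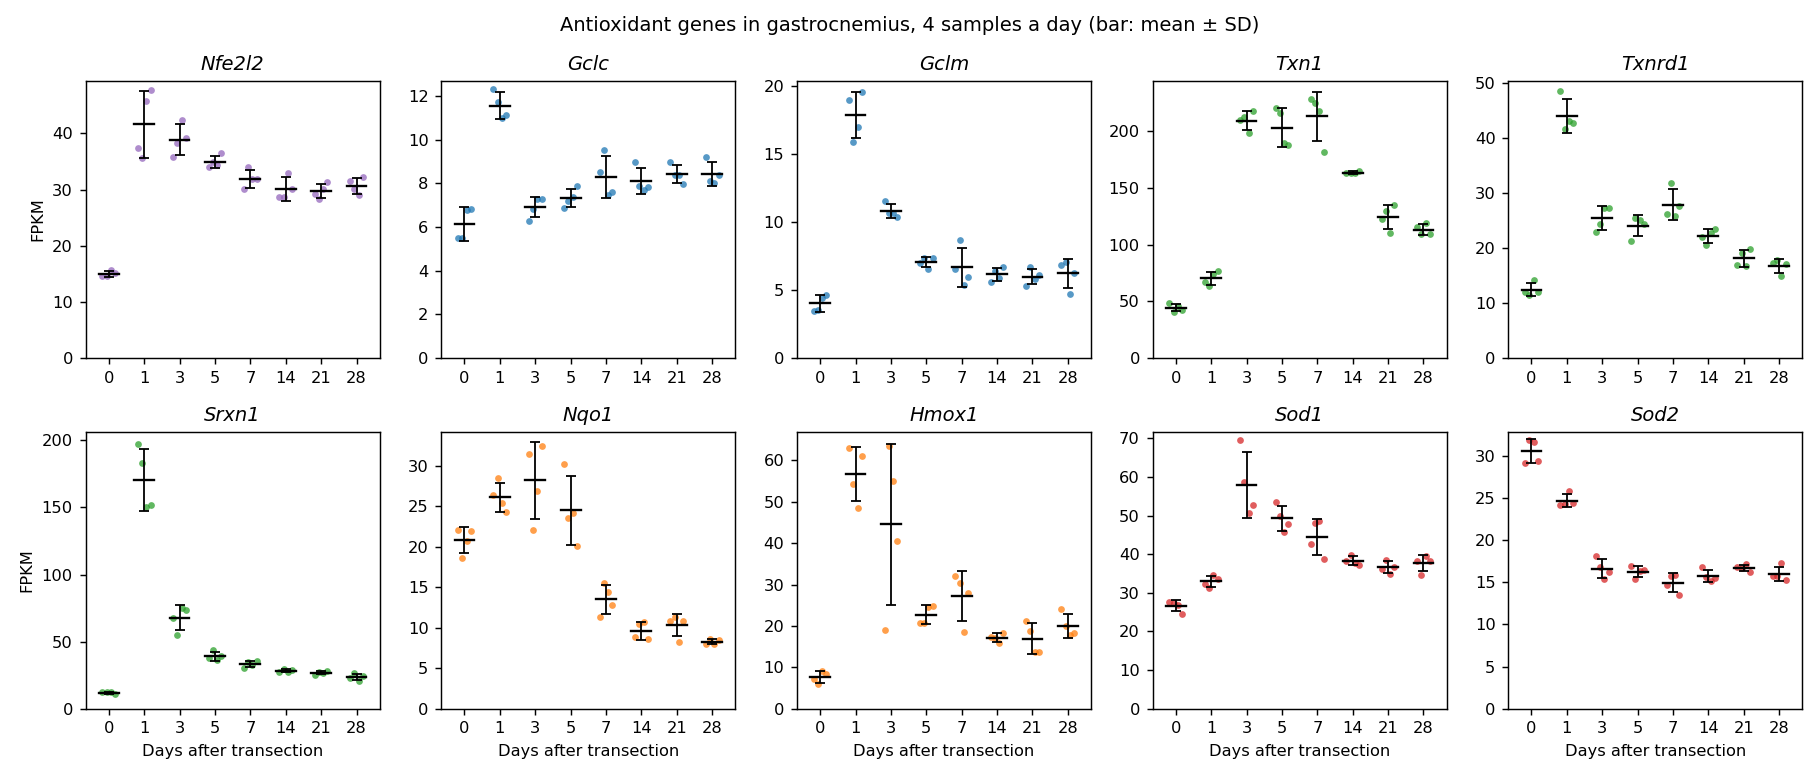
FPKM of each gene (vertical axis, each panel with its own scale from 0) against days after transection (horizontal axis, categories), with 1 point per sample and the mean ± SD of 4 samples in black. Srxn1, at 151 to 197 FPKM at 1 d against 11.1 to 12.3 at 0 d, shows the steepest early peak, Txn1 a plateau from 3 to 7 d, Nqo1 a late decline and Sod2 a step down between 0 and 3 d.

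The scale of the table bears on these counts. Because FPKM divides by the library total, and mitochondrially encoded transcripts took 14.5% to 18.2% of the fragments at 0 d but 6.70% to 11.3% at 7 d, the values of other genes can be raised together. Among the 11943 genes whose mean FPKM was 1 or more, the median log2 fold change against 0 d was 0.12, 0.20, 0.31, 0.32, 0.32, 0.24 and 0.30 over the 7 days in order, and between -0.042 and 0.015 after median-ratio scaling, which sets the typical gene of each library to the same level. Without the mitochondrial genes in the total, that median still lay between 0.085 and 0.22, over 11928 genes. Of all genes called, 68.7% to 79.5% were higher as deposited, 43.7% to 46.8% after median-ratio scaling, 49.3% to 52.3% after quantile normalization, 61.3% to 70.7% without the mitochondrial genes in the total and 78.1% to 89.1% as TPM. After median-ratio scaling, in the order of the 7 days, 3.93%, 8.31%, 6.6%, 7.03%, 6.6%, 6.41% and 6.75% of all genes were called higher and 5.06%, 9.79%, 7.83%, 8.14%, 7.57%, 7.3% and 8.03% lower. Among the 10 genes, the number called higher was then 6, 7, 4, 5, 3, 4 and 3, in place of 7, 7, 7, 7, 5, 4 and 4, while the number called lower was the same, and as TPM the number higher was 7 at 21 d and 8 at 28 d, in place of 4 at each. Of the 70 fold changes against 0 d, 9 lost their call after median-ratio scaling, and each of these is named below with its scaled value. Values with no scaling named are as deposited. Gclc at 3 d and 5 d and Nqo1 at 5 d, none of them called, were on the other side of 0 after median-ratio scaling and after quantile normalization. On the median-ratio scale, samples overlapped those of 0 d for Gclc from 3 d on, Gclm from 7 d on and Txnrd1 at 21 d and 28 d. They also did for Nqo1 at 1, 3 and 5 d and for Sod1 at 1, 14 and 28 d. The highest mean of Txn1 was on that scale at 3 d, 214 against 200 at 7 d.

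**Figure D2:**
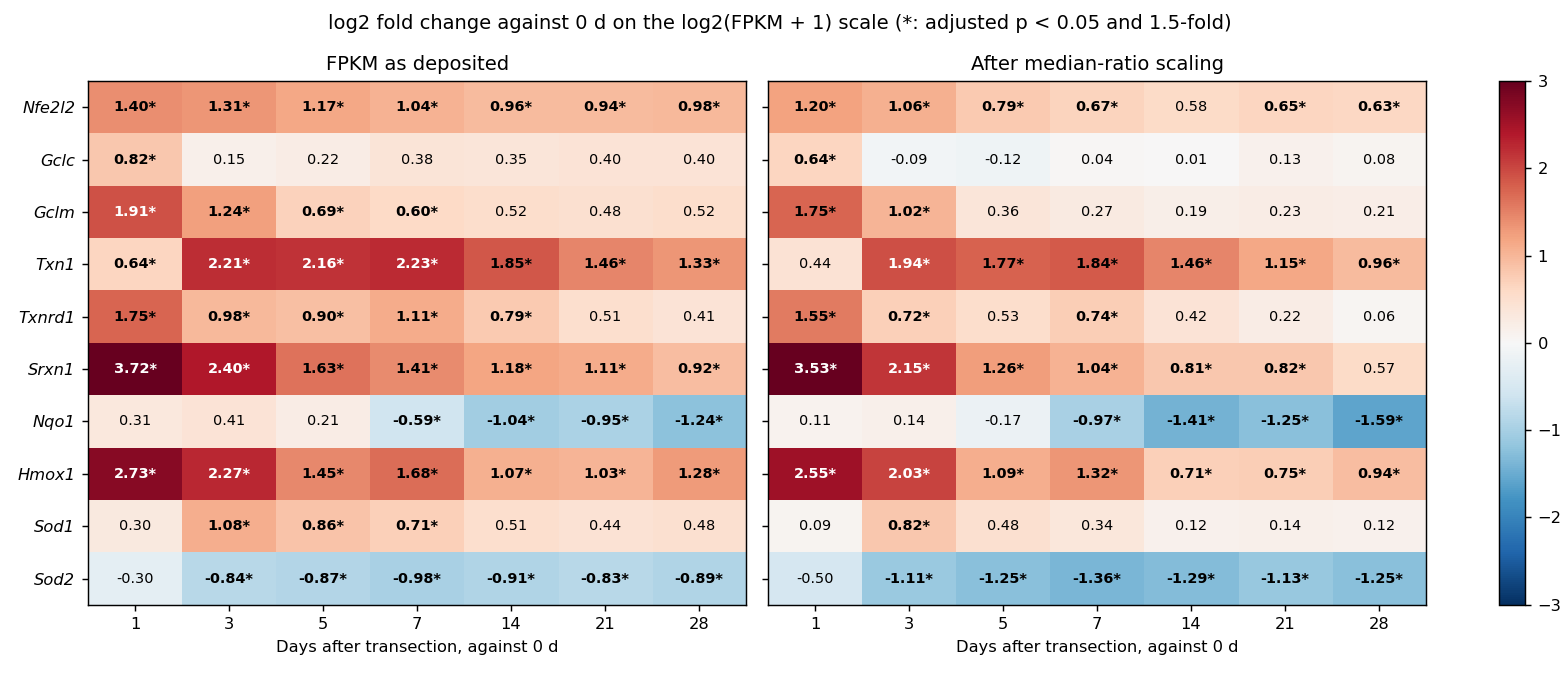
log2 fold change of each gene (rows) at each day against 0 d (columns), as deposited on the left and after median-ratio scaling on the right. Red is higher and blue lower, the number is the fold change on the log2(FPKM + 1) scale, and an asterisk marks an adjusted p under 0.05 with at least 1.5-fold. Srxn1, Hmox1 and Txn1 remain red across most days in both panels, and Sod2 and late Nqo1 are blue in both.

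Nfe2l2 (chr2:75675513-75704641, minus strand, GRCm38 as are all positions here), which encodes Nrf2, rose early and stayed up. Its FPKM was 14.7, 14.5, 15.7 and 15.2 in the 0 d samples and 37.4, 35.6, 45.7 and 47.7 at 1 d, and 31.6, 30.02, 28.97 and 32.2 at 28 d. Every denervated sample of any day lay above every 0 d sample, the lowest being 28.3 at 21 d. The log2 fold change was 1.40 (SE 0.070, adjusted p = 6.05e-15) at 1 d, 1.31 at 3 d and 0.98 (SE 0.070, adjusted p = 2.21e-12) at 28 d. After median-ratio scaling it was 1.20 at 1 d and 0.63 at 28 d. It remained called at all 7 days as deposited, and at 14 d the median-ratio value, 0.58, was under the 1.5-fold limit. No step between neighbouring days was called for Nfe2l2, and 28 d was below 3 d by a difference under that limit (-0.33, SE 0.070, adjusted p = 0.000359).

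Gclc and Gclm encode the catalytic and modifier subunits of glutamate-cysteine ligase, the rate-limiting enzyme of glutathione synthesis, and they moved by different amounts. Gclm (chr3:122245557-122270732, plus strand) measured 3.46, 3.54, 4.45 and 4.67 FPKM at 0 d, 18.96, 15.9, 16.9 and 19.5 at 1 d, 11.6, 10.6, 10.7 and 10.4 at 3 d and 6.85, 7.06, 4.74 and 6.22 at 28 d. The 1 d samples were the highest and overlapped no other day. Its mean at 1 d was 4.43 times that at 0 d, with a log2 fold change of 1.91 (SE 0.11, adjusted p = 8.64e-14) and of 1.75 after median-ratio scaling. It fell between 1 d and 3 d (-0.67, SE 0.11, adjusted p = 1.35e-05) and was lower at 28 d than at 3 d (-0.72, SE 0.11, adjusted p = 4.09e-06). By 14 d its fold change against 0 d, 0.52 (SE 0.11, adjusted p = 0.000234), was under the 1.5-fold limit. After median-ratio scaling its values at 5 d (0.36, in place of 0.69) and 7 d (0.27, in place of 0.60) were under that limit too. On that scale it was 0.19 at 14 d and 0.21 at 28 d, with no call. At 7 d its deposited call was lost without 0 d sample 1, 0 d sample 2 or 7 d sample b (0.48 to 0.55), and at 28 d, where it was not called (0.52), it was called without 28 d sample c (0.62). Its exons share 296 bases with Gm17494 on the opposite strand, listed at no more than 0.0585 FPKM, and 244 bases with the pseudogene Gm6061 on the same strand.

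Gclc (chr9:77754535-77794485, plus strand) measured 5.497, 5.48, 6.802 and 6.81 FPKM at 0 d and 12.3, 11.7, 10.99 and 11.1 at 1 d, with no overlap, and rose by 0.82 (SE 0.073, adjusted p = 6.5e-10) on the log2 scale, or 0.64 after median-ratio scaling. The 3 d samples (6.29, 6.81, 7.27 and 7.29) overlapped those of 0 d, and the drop from 1 d to 3 d was called (-0.67, SE 0.073, adjusted p = 2.36e-08). From 5 d on its group means lay between 7.32 and 8.43 FPKM, with no call against 0 d. The ratio of Gclm to Gclc within a library, which no scaling between libraries can alter, was 0.653 ± 0.0238 at 0 d, 1.55 ± 0.163 at 1 d and 1.57 ± 0.186 at 3 d (SD, n = 4). It was 0.966 ± 0.0631 at 5 d and 0.737 ± 0.115 at 28 d. All samples of 1, 3, 5 and 7 d lay above those of 0 d, while at each of 14, 21 and 28 d, 3 samples lay above and 1 below all of them. These ratios were chosen after the values were seen and are given with no test.

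The thioredoxin system reduces oxidised protein thiols: thioredoxin (Txn1) is kept reduced by thioredoxin reductase (Txnrd1), and sulfiredoxin (Srxn1) repairs peroxiredoxins that have been over-oxidised. Of its 3 members here, Srxn1 and Txnrd1 had their highest mean at 1 d and Txn1 had its highest later. Srxn1 (chr2:152105516-152111376, plus strand) had the largest change of the 10 genes. It measured 12.3, 12.2, 12.2 and 11.1 FPKM at 0 d, 197, 183, 151 and 152 at 1 d and 67.6, 54.9, 75.1 and 73.9 at 3 d. The 1 d samples were well above the highest 3 d sample, 75.1 FPKM, with 151 FPKM as the lowest. The mean at 1 d was 14.3 times that at 0 d, with a log2 fold change of 3.72 (SE 0.089, adjusted p = 9e-22), or 3.53 after median-ratio scaling. Srxn1 then fell from 1 d to 3 d (-1.32, SE 0.089, adjusted p = 1.91e-12) and from 3 d to 5 d (-0.77, SE 0.089, adjusted p = 1.87e-07). It measured 37.7, 43.6, 36.1 and 39.2 FPKM at 5 d, 30.3, 34.6, 32.9 and 35.7 at 7 d and 27.7, 29.6, 27.3 and 28.7 at 14 d. At 21 d the 4 samples gave 25.5, 27.1, 26.8 and 28.2 FPKM, and at 28 d 23.04, 26.4, 20.5 and 24.1. All of these remained above the 0 d samples, and 28 d was still called higher as deposited (0.92, SE 0.089, adjusted p = 1.2e-09), while after median-ratio scaling the fold change of 0.57 was under the limit.

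Txn1 (chr4:57943373-57956411, minus strand) rose later and held its level for longer. It measured 48.6, 40.99, 46.3 and 42.8 FPKM at 0 d, 67.01, 63.8, 74.1 and 76.5 at 1 d and 210.0, 213, 198 and 218 at 3 d. At 7 d the samples gave 228, 226, 218 and 182, and at 28 d 115, 109, 119 and 109.6. No sample of a later day overlapped 0 d. The log2 fold change was 0.64 (SE 0.074, adjusted p = 7.44e-08) at 1 d and 2.21 (SE 0.074, adjusted p = 2.06e-19) at 3 d, and 2.23 (SE 0.074, adjusted p = 2.42e-19) at 7 d, or 0.44, 1.94 and 1.84 after median-ratio scaling, so that the call at 1 d was not kept. The step from 1 d to 3 d was called (1.56, SE 0.074, adjusted p = 1.68e-15) and the steps among 3, 5 and 7 d were not, with differences of -0.046 and 0.066. Txn1 was lower at 28 d than at 7 d (-0.90, SE 0.074, adjusted p = 9.6e-10), in steps of -0.37, -0.40 and -0.13 that were each under 1.5-fold. Reads from its processed pseudogene Txn-ps1 could in principle be mixed with it, but that gene reached no more than 0.202 FPKM.

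Txnrd1 (chr10:82833951-82897712, plus strand), an NADPH-dependent selenoprotein, measured 12.1, 11.5, 14.2 and 11.9 FPKM at 0 d and 48.5, 41.6, 43.1 and 42.8 at 1 d. At 3 d it gave 22.9, 24.4, 27.3 and 27.3, at 7 d 26.2, 31.9, 25.8 and 27.6 and at 28 d 17.2, 17.8, 14.97 and 17.1. The 1 d samples stood above all other days. Those of 28 d were just above 0 d as deposited, and overlapped it after median-ratio scaling (14.9 to 16.5 against 14.4 to 16.7). The fold change was 1.75 (SE 0.079, adjusted p = 1.03e-15) at 1 d (1.55 after median-ratio scaling), and Txnrd1 fell by 3 d (-0.77, SE 0.079, adjusted p = 6.41e-09). It was called higher through 14 d (0.79) and not at 21 d (0.51) or 28 d (0.41), and it was lower at 28 d than at 7 d (-0.70, SE 0.079, adjusted p = 2.65e-07). After median-ratio scaling the values at 5 d (0.53) and 14 d (0.42) were under the limit, and those at 21 d and 28 d were 0.22 and 0.057. The ratio of Txn1 to Txnrd1 within a library was 3.61 ± 0.311 at 0 d, 1.605 ± 0.184 at 1 d and 8.28 ± 0.839 at 3 d (SD, n = 4), with every 1 d sample below and every 3 d sample above those of 0 d. At 28 d it was 6.79 ± 0.814, again above 0 d in all samples.

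**Figure D3:**
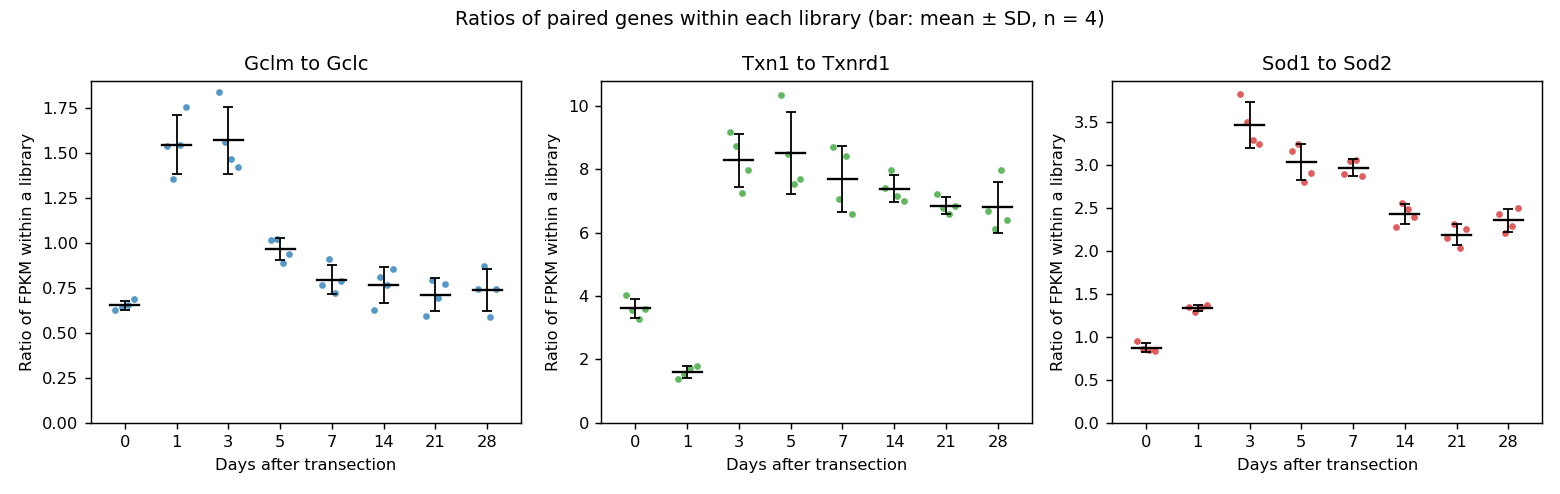
Ratio of the FPKM of 2 genes within each library (vertical axis, from 0) against days after transection, for Gclm to Gclc, Txn1 to Txnrd1 and Sod1 to Sod2, with 1 point per sample and the mean ± SD of 4 in black. The first ratio peaks at 1 and 3 d and from 14 d on has 3 samples above and 1 below those of 0 d, the second dips at 1 d and then stays above 0 d, and the third is 3.47 ± 0.265 at 3 d against 0.874 ± 0.0522 at 0 d.

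Nqo1 and Hmox1, both textbook Nrf2 targets, ended on opposite sides of 0 d, Nqo1 below it and Hmox1 above it, and both were lower at 28 d than at 3 d. Nqo1 reduces quinones directly to hydroquinones, which keeps them from cycling with oxygen. Nqo1 (chr8:107388225-107403206, minus strand) measured 22.02, 18.6, 20.7 and 21.9 FPKM at 0 d, 26.4, 28.4, 25.4 and 24.2 at 1 d and 31.5, 22.1, 26.8 and 32.4 at 3 d. At 5 d the samples gave 30.2, 23.5, 24.1 and 20.04, which overlapped 0 d, and at 7 d 11.4, 15.5, 14.4 and 12.8, all below it. The early differences were under 1.5-fold, 0.31 (SE 0.12, adjusted p = 0.0403) at 1 d and 0.41 (SE 0.12, adjusted p = 0.00474) at 3 d, and with median-ratio scaling they were 0.11 and 0.14. Nqo1 then fell from 5 d to 7 d (-0.81, SE 0.12, adjusted p = 0.000102), the only one of the 10 genes to be called there. It measured 8.800, 10.5, 10.7 and 8.56 FPKM at 14 d, 10.8, 11.3, 8.28 and 10.8 at 21 d and 7.94, 8.58, 8.02 and 8.45 at 28 d. The log2 fold change against 0 d was -0.59 (SE 0.12, adjusted p = 9.07e-05) at 7 d, -1.04 (SE 0.12, adjusted p = 1.51e-08) at 14 d, -0.95 (SE 0.12, adjusted p = 8.59e-08) at 21 d and -1.24 (SE 0.12, adjusted p = 5.65e-10) at 28 d, and median-ratio scaling enlarged these to -0.97, -1.41, -1.25 and -1.59. The 7 d call stood close to the 1.5-fold limit: without 0 d sample 1, 0 d sample 4, 7 d sample a or 7 d sample d the value was -0.57 to -0.52 and was not called, and as TPM it was -0.43. The 28 d level was below that of 3 d (-1.64, SE 0.12, adjusted p = 4.37e-12) and of 7 d (-0.64, SE 0.12, adjusted p = 0.000219).

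Hmox1 (chr8:75093621-75100589, plus strand) encodes haem oxygenase 1, which opens the haem ring to give biliverdin, iron and carbon monoxide, and which is abundant in macrophages that clear red cells. It measured 7.26, 6.05, 9.204 and 8.35 FPKM at 0 d, 63.02, 54.3, 48.6 and 61.01 at 1 d and 19.01, 63.5, 55.1 and 40.6 at 3 d. The 3 d sample a was low and the other 3 were in or near the 1 d range. The mean at 1 d was 7.35 times that at 0 d, with a log2 fold change of 2.73 (SE 0.23, adjusted p = 1.51e-10), or 2.55 after median-ratio scaling. At 3 d it was 2.27 (SE 0.23, adjusted p = 1.74e-09), 2.62 without sample a and 2.03 scaled by median ratio. Later values were 20.6, 20.8, 24.5 and 24.8 FPKM at 5 d, 31.96, 30.5, 18.5 and 28.01 at 7 d and 17.4, 17.2, 15.9 and 18.3 at 14 d. At 21 d the samples gave 21.1, 18.9, 13.7 and 13.8, and at 28 d 24.1, 20.1, 17.8 and 18.3. Every one of them exceeded the highest 0 d sample, 9.20 FPKM. The drop from 3 d to 5 d was called (-0.82, SE 0.23, adjusted p = 0.00799), and 28 d was higher than 0 d (1.28, SE 0.23, adjusted p = 2.93e-05), by 0.94 scaled by median ratio, and lower than 3 d (-0.99, SE 0.23, adjusted p = 0.00086). Without 3 d sample b the drop from 3 d to 5 d was under the limit, and 1 of the 10 genes, in place of 2, was called for that step.

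All 7 macrophage markers, and the 4 neutrophil markers of 5 that passed the filter, were called higher than 0 d at some day. The 7 macrophage markers (Adgre1, Cd68, Csf1r, Itgam, Lyz2, Mrc1 and Ptprc) summed to 119 to 172 FPKM at 0 d, 181 to 281 at 1 d, 259 to 863 at 3 d, 458 to 573 at 5 d, 322 to 1024 at 7 d, 327 to 824 at 14 d, 339 to 485 at 21 d and 379 to 456 at 28 d, with 3 of 7 called higher at 1 d, 6 at 3 d and none at 0 in all samples of a day. At 3 d the sum was lowest, 259, in the same sample a in which Hmox1 was lowest. Cd68, a lysosomal protein of macrophages, gave the largest change of that list, 4.07 (adjusted p = 2.2e-14) at 3 d. The 5 neutrophil markers summed to 1.28 to 2.26 FPKM at 0 d and 8.81 to 92.8 at 1 d, and from 17.5 to 56.0 in the later samples. Of the 5, 1 (Ly6g) was at 0 in every 0 d sample, and 1 was also at 0 in every sample of 3 d, of 14 d and of 21 d. The 5 erythroid markers summed to 226 to 492 at 0 d and 301 to 691 at 1 d. Of the 5 erythroid markers, 0 were called at any day in limma, 2 having an unadjusted p under 0.05 at 3 d, and after median-ratio scaling 3 were called lower at 3 d and 2 at 7 d. The mean of Hmox1 was highest at 1 d, where the macrophage sum was at most 281. As deposited, the single sample with the most Hmox1, 3 d sample b at 63.5 FPKM, had a macrophage sum of 863. After median-ratio scaling 1 d sample a had the most, 68.8 against 60.7 in 3 d sample b. The part of any cell type in the level of Hmox1 was not tested. Over all genes, 25.7% were called higher and 8.19% lower on at least 1 of the 7 days. On the same count, 2 of 4 endothelial markers were called lower, 3 of 5 markers of fibro-adipogenic progenitors and fibroblasts higher, 1 of 4 Schwann cell markers higher and 2 lower, and 1 of 3 satellite cell markers higher. After median-ratio scaling the endothelial markers called lower numbered 1 at 1 d, 4 at 7 d and 3 on each other day, and those of fibro-adipogenic progenitors and fibroblasts 1 higher at 5 d, 1 higher and 1 lower at 7 d and none on the other days. On that scale 2 Schwann cell markers were lower on every day and 1 was higher at 14 d, as was 1 satellite cell marker.

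**Figure D4:**
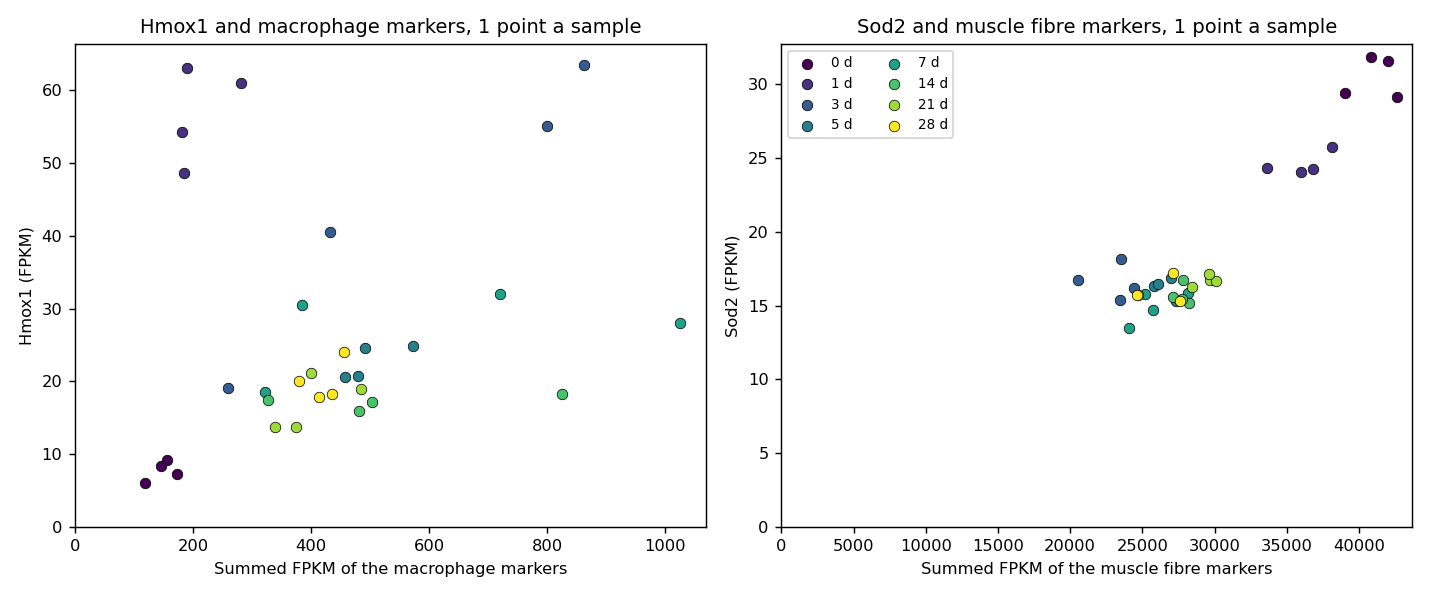
Left, Hmox1 (FPKM, vertical axis) against the summed FPKM of 7 macrophage markers (horizontal axis); right, Sod2 (FPKM) against the summed FPKM of 6 muscle fibre markers, with 1 point per sample coloured by day and all axes from 0. On the left the 4 samples of 1 d sit at 48.6 to 63.0 FPKM of Hmox1 with marker sums of 181 to 281, and on the right the 0 d and 1 d samples stand apart from all later ones.

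The superoxide dismutases turn superoxide into hydrogen peroxide in different compartments, and their mRNAs had different courses. Sod1 (chr16:90220754-90226329, plus strand), the copper and zinc enzyme of the cytosol, measured 27.7, 27.4, 26.8 and 24.6 FPKM at 0 d, 32.4, 31.2, 34.7 and 33.5 at 1 d and 69.5, 58.7, 50.6 and 52.7 at 3 d. At 7 d it gave 42.6, 48.1, 48.5 and 38.8 and at 28 d 38.2, 34.7, 39.4 and 38.3. As deposited, all samples of each later day were above those of 0 d. After median-ratio scaling, those of 1, 14 and 28 d overlapped 0 d (30.7 to 34.4), their lowest being 32.6, 33.9 and 32.2. Sod1 rose between 1 d and 3 d (0.78, SE 0.076, adjusted p = 1.99e-09), to 1.08 (SE 0.076, adjusted p = 1.12e-12) above 0 d, and was called at 3, 5 and 7 d. The 28 d value, 0.48 (SE 0.076, adjusted p = 4.53e-06), was under the 1.5-fold limit, and 28 d was lower than 3 d (-0.60, SE 0.076, adjusted p = 2.72e-07). After median-ratio scaling the fold change was 0.82 at 3 d, the only day then called, 0.48 at 5 d, 0.34 at 7 d and, last, 0.12 at 28 d.

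Sod2 (chr17:13006846-13040063, plus strand), the manganese enzyme of the mitochondrial matrix, was the gene of the 10 that was lower from early on. It measured 29.2, 31.8, 31.6 and 29.4 FPKM at 0 d, 24.1, 24.3, 25.8 and 24.4 at 1 d and 18.1, 16.7, 15.3 and 16.2 at 3 d. At 7 d the samples gave 14.7, 15.8, 15.8 and 13.5, and at 28 d 15.7, 15.7, 17.2 and 15.3. The 1 d samples lay between those of 0 d and all later ones. The log2 difference was -0.30 (SE 0.052, adjusted p = 4.81e-05) at 1 d, under the fold limit, and Sod2 was called lower at each day from 3 d (-0.84, SE 0.052, adjusted p = 9.54e-14) through 7 d (-0.98, SE 0.052, adjusted p = 3.94e-15) to 28 d (-0.89, SE 0.052, adjusted p = 3.92e-14). Median-ratio scaling enlarged these to -1.11, -1.36 and -1.25. No later step was called, and 28 d differed from 3 d by -0.052 (SE 0.052, adjusted p = 0.492). Within libraries the ratio of Sod1 to Sod2 was 0.874 ± 0.0522 at 0 d and 1.34 ± 0.0375 at 1 d. It reached 3.47 ± 0.265 at 3 d and 2.36 ± 0.135 at 28 d (SD, n = 4), above 0 d in every sample. The annotated exons are 3970 bases for Sod1 and 10008 for Sod2, so the level of that ratio depends on the isoforms annotated and only its course is described. Beside Sod2, the 6 muscle fibre markers summed to 39013 to 42597 FPKM at 0 d, 33624 to 38116 at 1 d and 20573 to 24386 at 3 d, and to between 24104 and 30074 in the later samples, while the group means of Sod2 from 3 d on lay between 14.9 and 16.7 FPKM. Of the 6, 1 was called lower at 1 d, 4 at 3 d and 5 d, 3 at 7, 14 and 21 d and 5 at 28 d, and 1 was called higher at 14, 21 and 28 d. After median-ratio scaling 2 were called lower at 1 d, 6 at 3 d and 5 on every later day, and 1 higher at 21 d and 28 d. Mb, the oxygen store myoglobin, was called lower at 3 d (-2.35, adjusted p = 9.33e-14) and higher at 21 d (1.398, adjusted p = 5.64e-09). Their part in the Sod2 result was not tested.

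Neighbouring days show where the levels of the 10 genes changed. From 1 d to 3 d, 6 were called (10.6% of all genes): Txn1 and Sod1 higher, and Gclc, Gclm, Txnrd1 and Srxn1 lower. From 3 d to 5 d, 2 were called (5.76% of all genes), Srxn1 and Hmox1, both lower, and from 5 d to 7 d Nqo1 (0.657%). None of the 10 was called from 7 d to 14 d (0.634% of all genes), from 14 d to 21 d (0.453%) or from 21 d to 28 d (0.199%) in limma, although 6, 2 and 2 of the 10 had an unadjusted p under 0.05 and 3, 1 and 0 an adjusted p under 0.05 without the fold limit. Over the longer interval, 6 were lower at 28 d than at 3 d (12% of all genes), namely Gclm, Txn1, Srxn1, Nqo1, Hmox1 and Sod1, and 3 were lower at 28 d than at 7 d (2.96%), Txn1, Txnrd1 and Nqo1. After median-ratio scaling the same genes were called in these comparisons, together with Sod2 from 1 d to 3 d (-0.60), Gclm from 3 d to 5 d (-0.66) and Txnrd1 between 3 d and 28 d (-0.67), each lower. The counts were then 7 (10.7% of all genes), 3 (5.44%) and 1 (0.599%) for the steps up to 7 d, 0 for each later step (0.608%, 0.34% and 0.177%), 7 between 3 d and 28 d (11.6%) and 3 between 7 d and 28 d (2.83%).

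The pathway around the 10 genes was described with 9 lists of other genes, by counts of calls against 0 d and without a test of a list. Over all genes, as deposited, 6.34% were called higher and 2.49% lower at 1 d, 13.2% and 6.03% at 3 d, 15.4% and 4.1% at 7 d, and 14.2% and 4.1% at 28 d. Of the 12 genes that control Nrf2 (Keap1 and its ligase, small Maf partners, Bach1 and relatives of Nrf2), 7 higher and 0 lower were called at 1 d, 6 higher and 0 lower at 3 d and 1 higher and 1 lower at 28 d, with a median log2 fold change of 0.66 (0.47 after median-ratio scaling) at 1 d and 0.15 (-0.14 after median-ratio scaling) at 28 d. After median-ratio scaling the counts were 5 higher and 0 lower at 1 d, 3 higher and 0 lower at 3 d and 0 higher and 1 lower at 28 d. Mafk, a small Maf protein that pairs with Nrf2, rose the most, from 6.74 ± 1.01 FPKM at 0 d to 35.7 ± 8.26 at 3 d, a log2 fold change of 2.23 (adjusted p = 5.13e-15, 1.99 scaled by median ratio). Cul3, the scaffold of the ligase that takes Keap1 as its adaptor, was the gene called lower, with a log2 fold change of -0.60 (adjusted p = 3.06e-07, -0.97 scaled by median ratio) at 28 d. Keap1 itself and Bach1, a repressor that competes for the same elements, are named after their values were seen: Keap1 gave 11.01 ± 1.51 FPKM at 0 d and 18.1 ± 0.958 at 1 d (0.67, adjusted p = 4.77e-08, 0.48 scaled by median ratio), and Bach1 6.94 ± 0.695 and 20.8 ± 1.95 (1.46, adjusted p = 9.85e-15, 1.27 scaled by median ratio).

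Of 28 other genes of glutathione synthesis and use, 4 higher and 1 lower were called at 1 d and 11 higher and 4 lower at 28 d, with 16 higher and 5 lower at any day (25.7% and 8.19% of all genes), and the median was 0.0021 (-0.10 after median-ratio scaling) at 1 d and 0.29 (0.063 after median-ratio scaling) at 28 d. Counts were 4 higher and 2 lower at 1 d and 3 higher and 4 lower at 28 d after median-ratio scaling. Gpx3, the glutathione peroxidase secreted into plasma, rose from 129 ± 10.4 FPKM at 0 d to 703 ± 122 at 28 d (2.42, adjusted p = 6.39e-15, 2.05 scaled by median ratio). Mgst3, a membrane-bound glutathione transferase, fell from 222 ± 13.6 to 22.1 ± 0.833 at 7 d (-3.27, adjusted p = 8.47e-20, -3.65 scaled by median ratio). Gsr, the reductase that regenerates glutathione, is named after its values were seen. It gave 9.03 ± 0.292 FPKM at 0 d and 28.5 ± 3.29 at 1 d (1.55, adjusted p = 1.4e-15, 1.36 scaled by median ratio). Of 17 thioredoxin and peroxiredoxin partners, 2 higher and 0 lower were called at 1 d and 4 higher and 3 lower at 7 d, with a median of 0.36 (-0.019 after median-ratio scaling) at 7 d. After that scaling 2 higher and 0 lower were called at 1 d and 1 higher and 5 lower at 7 d. Sesn1, a sestrin that p53 induces, rose from 8.52 ± 0.2100 to 24.1 ± 2.31 FPKM at 1 d (1.40, adjusted p = 6.31e-09, 1.21 scaled by median ratio), and Txnip, which binds and inhibits thioredoxin, fell from 175 ± 8.32 to 55.6 ± 12.5 at 7 d (-1.66, adjusted p = 1.82e-08, -2.05 scaled by median ratio).

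Of 6 other superoxide and peroxide enzymes, 2 higher and 0 lower were called at 3 d, with a median of 0.34 (0.10 after median-ratio scaling), and with that scaling 1 higher and 2 lower were. Cat, the catalase that splits hydrogen peroxide, rose the most of these, from 51.3 ± 4.700 to 152 ± 1.38 FPKM (1.55, adjusted p = 4.71e-18, 1.28 scaled by median ratio). Of the 8 genes of NADPH supply that passed the filter, of 9 listed, 3 higher and 1 lower were called at 3 d and 3 higher and 2 lower at 28 d, with a median of 0.35 (-0.085 after median-ratio scaling) at 28 d, and with that scaling 3 higher and 2 lower and 2 higher and 2 lower on the same days. Idh2, the isocitrate dehydrogenase that makes NADPH in mitochondria, fell from 127 ± 14.02 to 14.7 ± 4.72 FPKM at 3 d (-3.09, adjusted p = 5.85e-15, -3.37 scaled by median ratio), and Mthfd2, a mitochondrial folate enzyme, rose from 1.76 ± 0.132 to 13.3 ± 1.88 at 28 d (2.37, adjusted p = 3.62e-17, 2.098 scaled by median ratio). Of 12 haem and iron genes, 3 higher and 1 lower were called at 1 d, with a median of 0.075 (-0.063 after median-ratio scaling), and with that scaling 2 higher and 1 lower were. Hp, whose product haptoglobin binds free haemoglobin, was among the higher ones at 1 d with a wide spread, 22.9 ± 10.98 against 127 ± 105 FPKM (2.20, adjusted p = 0.00622, 2.002 scaled by median ratio), and Tfrc, the transferrin receptor, fell from 50.2 ± 7.43 to 14.3 ± 5.15 (-1.79, adjusted p = 1.86e-09, -2.003 scaled by median ratio). Of 14 other Nrf2-linked detoxification genes that passed the filter, of 15 listed, 4 higher and 1 lower were called at 1 d and 4 higher and 0 lower at 28 d, with a median of 0.21 (0.12 after median-ratio scaling) at 1 d. With that scaling 1 higher and 1 lower were called at 1 d and 2 higher and 1 lower at 28 d. Osgin1, an oxidative stress response gene, rose at 1 d (4.99 ± 1.496 to 22.1 ± 1.95 FPKM, log2 fold change 1.97, adjusted p = 2.03e-11, 1.81 scaled by median ratio), and Ephx1, an epoxide hydrolase, fell at 3 d (-1.17, adjusted p = 4.54e-10, -1.44 scaled by median ratio).

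The NADPH oxidases, which make superoxide, were described in the same way. Of 10 NADPH oxidase and related genes, 8 higher and 0 lower were called at any day, 4 higher and 0 lower were called at 1 d and 7 higher and 0 lower at 3 d, and 2 higher and 0 lower at 1 d and 5 higher and 0 lower at 3 d after median-ratio scaling, with a median of 0.73 (0.57 after median-ratio scaling) at 3 d. Ncf1, an organising subunit of the phagocyte oxidase, gave 0.874 ± 0.0905 FPKM at 0 d and 5.15 ± 3.07 at 3 d (1.53, adjusted p = 4.12e-05, 1.38 scaled by median ratio), beside the rise in macrophage markers over the same days, whose part in it was not tested. Of the 14 nuclear genes of the mitochondrial matrix and respiratory chain, 11 were called lower at 3 d, 13 at 5 d and from 7 to 11 on each later day, with a median of -0.26 (-0.47 after median-ratio scaling) at 1 d and -0.74 (-1.01 after median-ratio scaling) at 3 d. Beside them, Sod2 gave -0.30 (-0.50 after median-ratio scaling) at 1 d and -0.84 (-1.11 after median-ratio scaling) at 3 d. After median-ratio scaling 5 of the 14 were called lower at 1 d and 13 or 14 on every later day. Idh3a, a subunit of the NAD-linked isocitrate dehydrogenase, fell the most, with a log2 fold change of -1.45 (adjusted p = 2.96e-15, -1.83 scaled by median ratio) at 7 d.

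**Figure D5:**
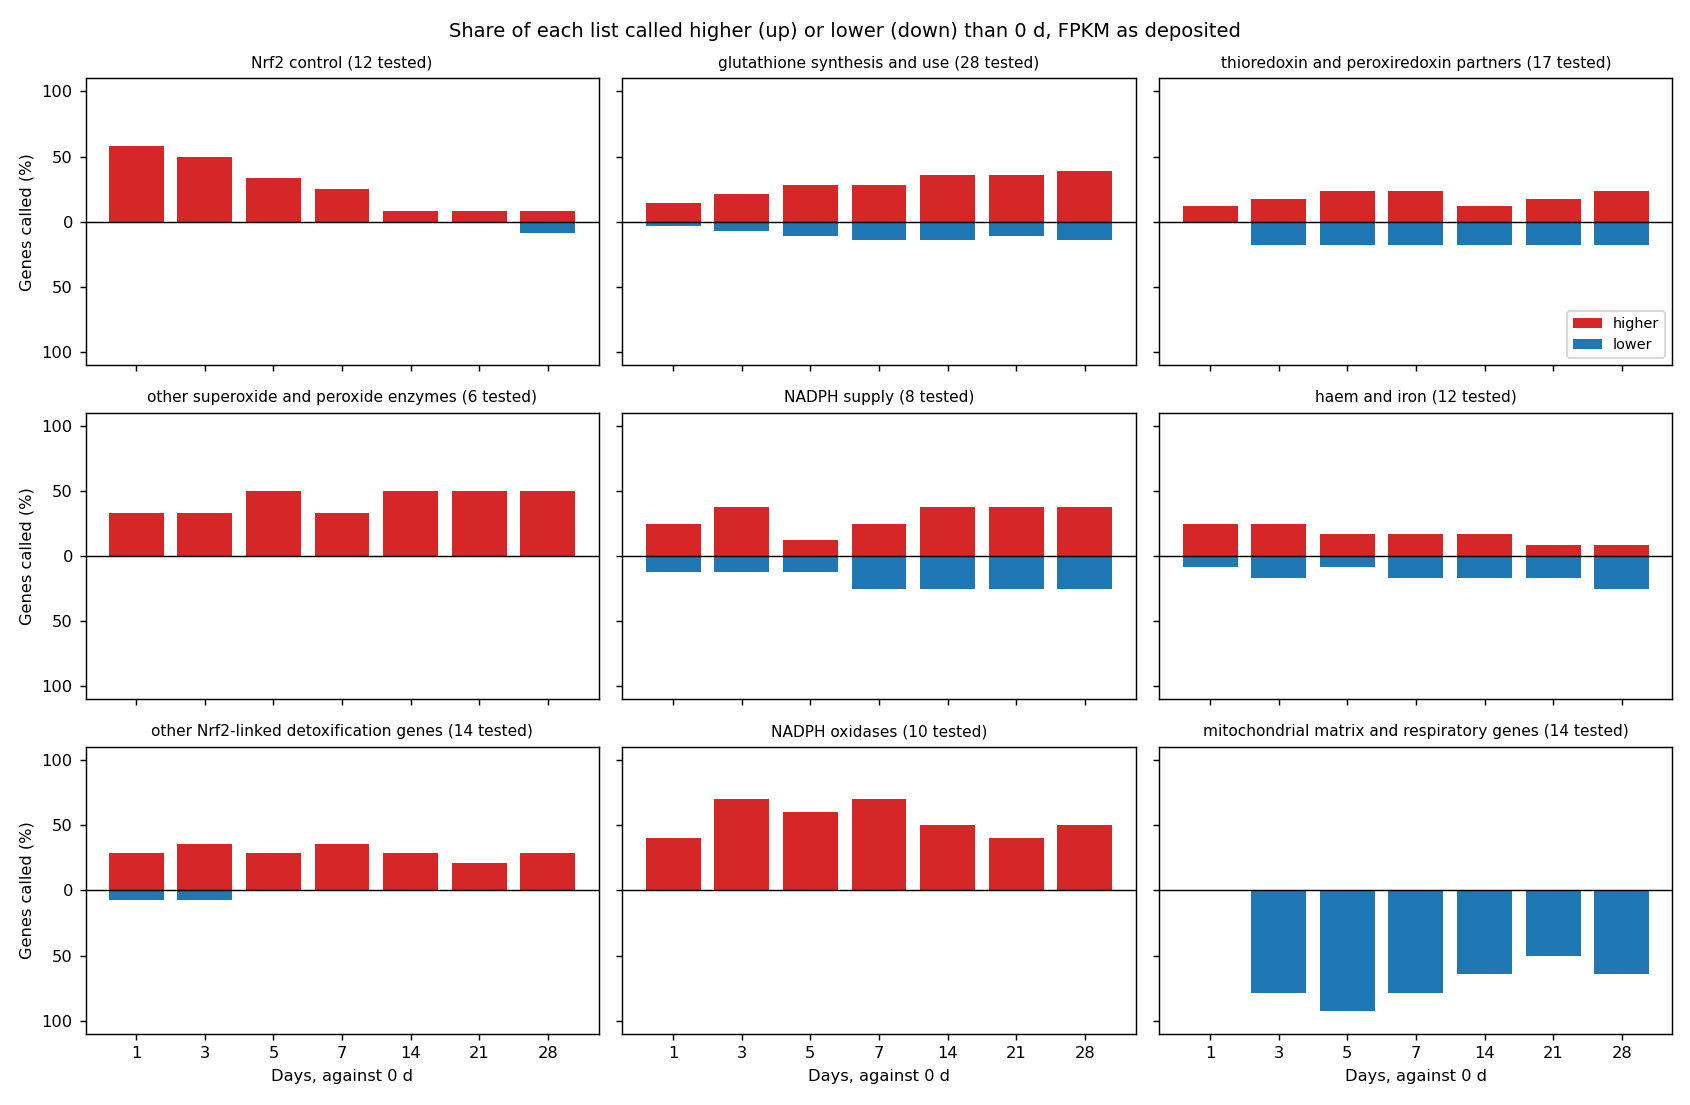
Share of the tested genes of each list called higher (red, upward) or lower (blue, downward) than 0 d, in percent, at 1 to 28 d, from FPKM as deposited. Genes that control Nrf2 are mostly called at 1 and 3 d (7 and 6 of 12), glutathione genes increasingly at later days (11 of 28 at 28 d), and the mitochondrial genes are called only lower, from 3 d on. After median-ratio scaling, not plotted, these counts are 5 and 3 of 12 and 3 of 28, and 5 of 14 mitochondrial genes are called lower at 1 d already.

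Likeness of course was measured as Pearson's r over the 8 group means of log2(FPKM + 1), among 2102 genes whose mean FPKM was 5 or more and whose means spanned 1 or more. These means come from shared libraries, and r is a description. Gclm and Srxn1 were each other's closest match among all of these genes (r = 0.992). The 2 closest genes were Secisbp2 (r = 0.992) and Emd (r = 0.986) for Nfe2l2, Nol3 (r = 0.997) and Ctsb (r = 0.994) for Txn1 and Ddi2 (r = 0.964) and Gm22748 (r = 0.957) for Txnrd1. For Gclm the next was Ubb (r = 0.983), and for Srxn1 it was Bclaf1 (r = 0.986). Ctsb is the lysosomal protease cathepsin B. They were Pdlim7 (r = 0.982) and Tmem56 (r = 0.966) for Nqo1, 6430548M08Rik (r = 0.987) and Ccl2 (r = 0.986) for Hmox1, Ccl2 being a chemokine that attracts monocytes, and Fgl2 (r = 0.881) and Midn (r = 0.858) for Gclc, whose best matches were the weakest. For Sod1 they were Srp19 (r = 0.994) and Nhp2 (r = 0.993), and for Sod2 Ano5 (r = 0.996) and Gm37829 (r = 0.995). Among the 45 pairs within the 10 genes, r ran from -0.919 (Txn1 and Sod2) to 0.992 (Gclm and Srxn1).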

How the data were processed

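RNA was sequenced from the 32 GAS samples, and the authors deposited 1 FPKM value per gene and sample for 33397 genes. Per the labels, CASAVA, HISAT2 2.1.0, DESeq2 and GRCm38 appear in the submitters' processing notes. The counter and its strand setting are not given in the sources used here. For 33356 genes the FPKM values equalled whole fragments (within 0.05, for 99.3% to 99.4% of values under 200 fragments) over GENCODE M21 merged exon length and library total, and 41 identifiers were not matched. Depth was 14189200 to 17546700 fragments per sample.

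Values were taken to log2(FPKM + 1). The 22071 genes that reached 0.1 FPKM in 4 or more samples were tested with limma 3.58.1 in R 4.3.3 (1 fit of 32 samples, trended variance, Benjamini-Hochberg adjustment), and a call required both 1.5-fold and an adjusted p under 0.05. The 10 genes were further compared with 0 d by an exact permutation test. A simulated comparison of 1 d with 0 d, with 200 genes changed 2-fold, recovered 177 of them (88.5%) with 0 false calls among 20803 genes. The changed genes were drawn from those with a mean log2(FPKM + 1) above 1 at 0 d. The noise was drawn independently for each gene and sample, and no shift of scale between libraries was simulated. False calls that arise from the scaling were therefore not tested. Python 3.11.15, pandas 2.3.3, scipy 1.17.1 and matplotlib 3.10.9 did the rest.

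The 10 genes and the 9 pathway lists and 9 marker lists were chosen with earlier results of these data known. Named by rule were all 10 genes, the gene with the largest called change in each direction of a list, and for each of the 10 the 2 genes of most similar course. Keap1, Bach1 and Gsr were named outside this rule, after their values were seen. The alternatives were the pseudocount (0.1 or 0.5), the filter, median-ratio scaling, TPM, quantile normalization, a total without mitochondrial genes, the variance trend, 8-sample fits, no fold limit and leaving out each sample. The study's other assays and its knockout mice were not analysed here.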

Additional observations from a re-analysis of the deposited data

Results flagged for a closer look

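Of the 80 groups of 4 samples (10 genes on 8 days), 4 had 1 sample that lay well away from the rest, and chance alone marks about 1 in 20. Gclc at 14 d had 1 sample at 8.996 FPKM against 7.70 to 7.90 for the others. Srxn1 at 0 d had 1 at 11.1 against 12.2 to 12.3, Nqo1 at 21 d 1 at 8.28 against 10.8 to 11.3, and Sod2 at 1 d 1 at 25.8 against 24.1 to 24.4.

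The change against 0 d differed between days by the limma test of the difference for 6 genes at 28 d against 3 d, on the log2 scale: Gclm by -0.72, Txn1 by -0.88, Srxn1 by -1.48, Nqo1 by -1.64, Hmox1 by -0.99 and Sod1 by -0.60. At 28 d against 7 d it differed for Txn1 by -0.90, for Txnrd1 by -0.70 and for Nqo1 by -0.64.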

How the results depend on the processing

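No paired analysis was possible because the columns carry no number or name that ties them to a labelled sample, so no replicate block could be fitted. Of the 70 fold changes against 0 d, the direction and the call of all 70 were the same with a pseudocount of 0.5, with no filter, with the stricter filter, without the variance trend and in fits of 8 samples, and of 68 with a pseudocount of 0.1 or without the mitochondrial genes in the total. The scaling mattered more. Median-ratio scaling left 58 the same, took the call from 9 and turned 3, and quantile normalization 60, 7 and 3, while TPM added 10 calls and removed 1. The 3 that turned were not called in either setting: Gclc at 3 d (-0.088 after median-ratio scaling, -0.079 after quantile normalization), Gclc at 5 d (-0.12 and -0.095) and Nqo1 at 5 d (-0.17 and -0.13). In the order of the 7 days, the number of the 10 genes called higher was 7, 7, 7, 7, 5, 4 and 4 as deposited, 6, 7, 4, 5, 3, 4 and 3 after median-ratio scaling, 6, 7, 4, 5, 4, 4 and 4 after quantile normalization and 7, 7, 7, 8, 7, 7 and 8 as TPM, which also left 1 lower at 7 d. In the fit of 8 samples, 1 was called from 3 d to 5 d. Without the fold limit, 1 was lower at 1 d and 8 were higher at 14 d, at 21 d and at 28 d, and 4 were called from 3 d to 5 d, 3 from 7 d to 14 d, 1 from 14 d to 21 d and 5 between 7 d and 28 d. It also added Nqo1 and Sod1 at 1 d, Nqo1 at 3 d and Gclc at 5 d and 7 d, each higher than 0 d. Further additions were Sod2 from 1 d to 3 d, and Nfe2l2, Gclc and Txnrd1 between 3 d and 28 d. Leaving out 1 sample at a time, the number lower at 7 d ranged from 1 to 2, the number called from 3 d to 5 d from 1 to 2, the number higher at 28 d from 4 to 5, and the number called between 7 d and 28 d from 2 to 3. The number higher at 7 d also fell, as Gclm was not called without 0 d sample 1, 0 d sample 2 or 7 d sample b (0.48 to 0.55). Leaving out 3 d sample a changed no call of a fold change at 3 d against 0 d. Each of the 10 genes had at least 158 fragments in every sample, and the effect of depth on the calls was not tested. With 4 samples a group, changes under 1.5-fold were not called however small their p.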
